A study of Mus musculus with 3 samples.

Results

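The Chd4 locus was followed in 3 CUT&Tag peak lists of mouse brown preadipocytes, as every peak that touched the gene or the 50 kb on either side of it. The gene spans chr6:125095980-125130591 (mm10, plus strand). By this rule 11 peaks of induced cells, 15 of untreated cells and 0 of the IgG control belonged to the locus, or 26 of the 11211 peaks in all. CUT&Tag uses an antibody to tether a transposase that cuts and tags the DNA around a bound protein. The induced cells had spent 3 days in brown adipocyte differentiation medium before ZFP410 was mapped. The untreated cells received the same ZFP410 antibody without that medium, and the IgG library was made from untreated cells too. All cells were lineage-negative CD29+CD34+Sca1+ preadipocytes sorted from brown fat of male wild-type C57BL/6 mice, and the number of mice behind each library is not given in the sources used here. With 1 library in each group, differences had no replicate check and were not given p-values. Peak lists do not measure expression, so the cell type could not be checked against its marker genes.

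CHD4 is an ATPase that slides nucleosomes as the motor of the NuRD complex, which joins chromatin remodelling to histone deacetylation. ZFP410 is a zinc finger protein that binds DNA. In other mouse and human cells it is known for sitting on clusters of its motif at the Chd4 start and at an element upstream of it, and for keeping Chd4 transcribed.

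The start of Chd4 is shown first because a repeated word lies there under the ZFP410 peaks. RefSeq (GRCm38.p6, the same coordinates as mm10) gave 2 windows of 300 bases for Chd4, each reaching from 250 bases before an annotated transcript start to 50 after it. These starts lie 1 and 183 bp past the first base of the gene. In the 482 bases that the windows cover together, the word of 9 letters met most often was TATTATGGG, with 4 copies, all on the plus strand. In 2 of the copies it ran on to the 12 letters TATTATGGGATG. The other strand reads CATCCCATAATA there, the sequence described for ZFP410 binding in other cells. Capitals mark the 12 letters where all were present and the first 9 otherwise, and each window is given 5′ to 3′ on the plus strand.
chr6:125095731-125096030, plus strand: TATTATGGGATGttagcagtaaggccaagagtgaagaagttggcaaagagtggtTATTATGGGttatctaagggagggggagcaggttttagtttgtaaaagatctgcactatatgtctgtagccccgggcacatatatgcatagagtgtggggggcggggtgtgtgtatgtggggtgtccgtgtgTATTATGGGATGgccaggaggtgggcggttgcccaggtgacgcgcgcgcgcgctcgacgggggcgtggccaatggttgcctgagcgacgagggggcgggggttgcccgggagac
chr6:125095913-125096212, plus strand: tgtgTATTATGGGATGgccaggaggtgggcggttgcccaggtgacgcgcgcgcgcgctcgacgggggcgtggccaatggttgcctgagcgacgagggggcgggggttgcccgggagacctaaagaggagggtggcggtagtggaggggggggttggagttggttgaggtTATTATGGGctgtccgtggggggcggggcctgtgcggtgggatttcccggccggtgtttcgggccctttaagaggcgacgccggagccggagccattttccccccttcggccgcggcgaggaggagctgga

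The copies began 249, 195 and 63 bp upstream and 102 bp downstream of the first base of the gene, with spacings of 54, 132 and 165 bp between their starts. Each copy is shown with the bases that follow it, 18 in all, to compare how far the copies run alike.
Copy 1, from 125095731: TATTATGGGATGttagca
Copy 2, from 125095785: TATTATGGGttatctaag
Copy 3, from 125095917: TATTATGGGATGgccagg
Copy 4, from 125096082: TATTATGGGctgtccgtg
On either strand, the 9-letter word occurred in 32 of 32851 start windows (0.0974%), or 29 of 27025 genes. Only the 2 Chd4 windows held more than 1 copy. A peak overlapped a start window of 4 of these 29 genes in induced cells (13.8%, against 5.28% of all genes with a window), of 2 in untreated cells (6.90%, against 2.19%) and of 0 in IgG (against 0.0074%). Chd4, where the word was found, is among them. The 12-letter word occurred in 4 windows (0.0122%), of Chd4, Lin54 and Mcpt4, and only a Chd4 window held it more than once. GGGGGCGGG and GGGGCGGGG, which overlap each other, came next at Chd4 with 3 copies each and stood in 7.77% and 11.4% of all windows. Sequence outside the start windows, which includes the upstream peaks, was not analysed here.

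Values at a peak are summit fragments, the number of sequenced fragments stacked at its highest point, recovered from the fold and p that the peak caller deposited. Relative depth was 2.01 for the induced over the untreated library, and 14.1 for the induced over the IgG library. The median peak held 7, 4 and 4 fragments in the induced, untreated and IgG lists.

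The highest peak of the locus lay upstream of Chd4, in the stretch between Lpar5, which encodes a receptor for lysophosphatidic acid, and Chd4. It held 227 fragments in induced cells and 35 in untreated cells, and IgG had no peak there. The induced summit was 6973 bp and the untreated summit 6972 bp upstream of Chd4, so that the summits of separate libraries were 1 bp apart. Over all 1537 shared sites the median distance between summits was 57 bp, and 7.68% were within 1 bp. Those sites were taken at any height, and the median peak held 7 fragments in the induced list and 4 in the untreated list. Summit distance was not compared among sites of like height. The induced peak ran over 3716 bp (125087145 to 125090860), against 901 bp for the highest untreated peak (125088495 to 125089395). The authors' fold over local background, used here only within a list, was 183 in the induced list (rank 1 of 7475) and 32.4 in the untreated list (rank 2 of 3256). Ranks from lists of unequal length show no change.

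The start of Chd4 carried the second peak by height. Its summit held 52 fragments in induced cells and 10 in untreated cells, at 687 and 675 bp upstream of the gene, 12 bp apart and upstream of all 4 copies of the word. The induced peak covered 3418 bp (125094137 to 125097554), from 1843 bp before the gene to 1574 bp into it. It also spanned Mir7045, a microRNA gene inside Chd4 (125097024 to 125097086). Untreated cells had 5 peaks over the same stretch, at 1364, 675 and 47 bp upstream and 171 and 869 bp downstream, with 7, 10, 8, 7 and 4 fragments. The peak 47 bp upstream (125095721 to 125095979) held copies 1 to 3 of the word, and copy 4 fell between it and the next untreated peak. All 4 copies lay inside the induced peak. The local background was 2.33 times the genome background at the untreated peaks 47 bp upstream and 171 bp downstream, and equal to it at the other 3. The start ranked 25 in the induced list by its only peak there and 142 in the untreated list by the highest of its 5.

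**Figure D1:**
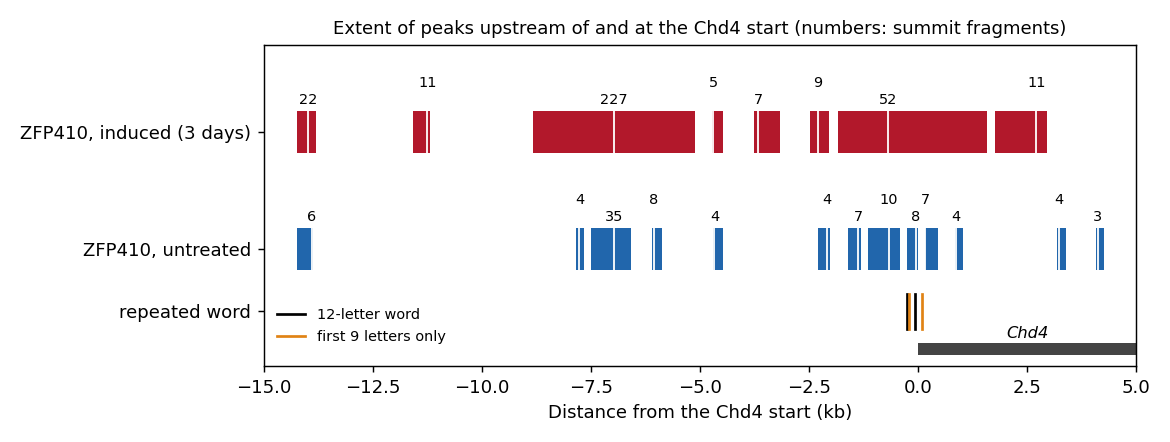
Extent of each ZFP410 peak (bars) from 15 kb upstream to 5 kb downstream of the Chd4 start (x axis, kb), induced above untreated, with white lines at summits and the summit fragments as numbers. The wide induced peaks of 227 and 52 fragments stand over 3 and 5 narrower untreated peaks, and the 4 copies of the word (lines below) lie at the start.

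The wide induced peaks took the place of several untreated ones. The upstream induced peak overlapped 3 untreated peaks, with 4, 35 and 8 fragments, and the start peak overlapped 5. Among all induced peaks 39 overlapped 2 or more untreated peaks (0.522% of 7475, and 2.54% of the 1537 that overlapped any). Only 5 overlapped 3 or more. The start of Chd4 was the only one with 5, and the upstream peak had 3, as had peaks inside Hhat and Rrp15 on chromosome 1 and a peak 94764 bp from Gpr141 on chromosome 13. The untreated peaks filled 34.7% of the upstream induced peak and 51.7% of the start peak. The gaps between them measured 179 and 486 bp at the upstream site and 143 to 393 bp at the start. Beyond the outermost untreated peaks the induced peak reached a further 1006 and 756 bp at the upstream site, and 246 and 543 bp at the start. Depth differed between the libraries as given above, and its part in the merging was not tested.

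Counted over the locus, 13 of the 15 untreated peaks overlapped an induced one (86.7%, 95% Wilson interval 62.1 to 96.3), against 47.7% of all untreated peaks. In turn 7 of the 11 induced peaks overlapped an untreated one (63.6%, 35.4 to 84.8), against 20.6% of all induced peaks. Of the 13 untreated peaks, 8 shared the 2 wide induced ones. Peaks of a locus are not independent, and these intervals cover counting error only.

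Spacing within the stretch around the start was uneven. The induced list had 8 peaks over 17186 bp (125081742 to 125098927), of which 10411 bp were under a peak. The untreated list had 13 over 18513 bp (125081742 to 125100254), of which 4353 bp were under a peak. Neighbouring summits were a median of 2280 bp apart in induced cells (1037 to 4272) and 838.5 bp apart in untreated cells (218 to 6138). The closest untreated summits, 218 bp apart, were those on either side of the first base of Chd4. Over the locus as a whole, peaks covered 12294 bp in induced and 5002 bp in untreated cells, with mean folds of 27.7 and 7.82. These means include the upstream peak, with folds of 183 and 32.4, and folds are not compared between lists here.

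Between the upstream site and the start lay low peaks. At about 4.7 kb upstream the libraries held 5 fragments (induced) and 4 (untreated), in peaks of 254 and 239 bp that ended on the same base, 125091521. At about 2.2 kb upstream they held 9 (induced) and 4 (untreated), with summits 212 bp apart. A peak 3656 bp upstream was listed for induced cells alone, with 7 fragments. Further out, a site inside Lpar5 held 22 fragments (induced) and 6 (untreated), and both its peaks began at 125081742. Its local background was 8.25 times the genome background in the induced list and 2.33 times in the untreated list. A second peak inside Lpar5, of 11 fragments, was listed for induced cells alone.

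Inside Chd4 itself, peaks were found only near the start. The induced list had 1 summit in the gene, 2713 bp from its first base with 11 fragments, in a peak of 1193 bp (125097735 to 125098927). The untreated list had 4, the last of them 3228 and 4118 bp from the first base with 4 and 3 fragments. Those last 2 were the only untreated peaks of the locus that overlapped no induced peak. At equal enrichment the induced library would have held 8.96 and 6.72 fragments there, and its lowest called peaks held 4. For the 4 peaks listed in induced cells alone, of 7 to 13 fragments, 3.12 to 5.80 would have been expected in the untreated library, where the lowest called peaks held 3. The 5.80 is for a peak at Gapdh, with a local background 2.76 times the genome background in the induced list. The lowest number called in a list need not be enough for a call at such a background. Neither ZFP410 list had a summit in the rest of Chd4 or in Nop2, an rRNA methyltransferase gene downstream of it.

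A separate group of peaks lay more than 65 kb from the Chd4 start, at Gapdh, the glycolytic enzyme gene often used as a housekeeping control. A peak inside Iffo1, near its border with Gapdh, held 15 fragments in induced and 9 in untreated cells, with summits 12 bp apart. A second, inside Gapdh, held 19 and 6. Another, 52 bp downstream of the Gapdh start, was listed for induced cells alone, with 13 fragments at a local background 2.76 times the genome background. No ZFP410 or IgG summit fell within 1 kb of an annotated start of Ing4, Acrbp, Lpar5 or Nop2. The condensin gene Ncapd2 had an induced summit of 6 fragments within 1 kb of its start and no untreated one, but that peak was beyond 50 kb from Chd4.

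**Figure D2:**
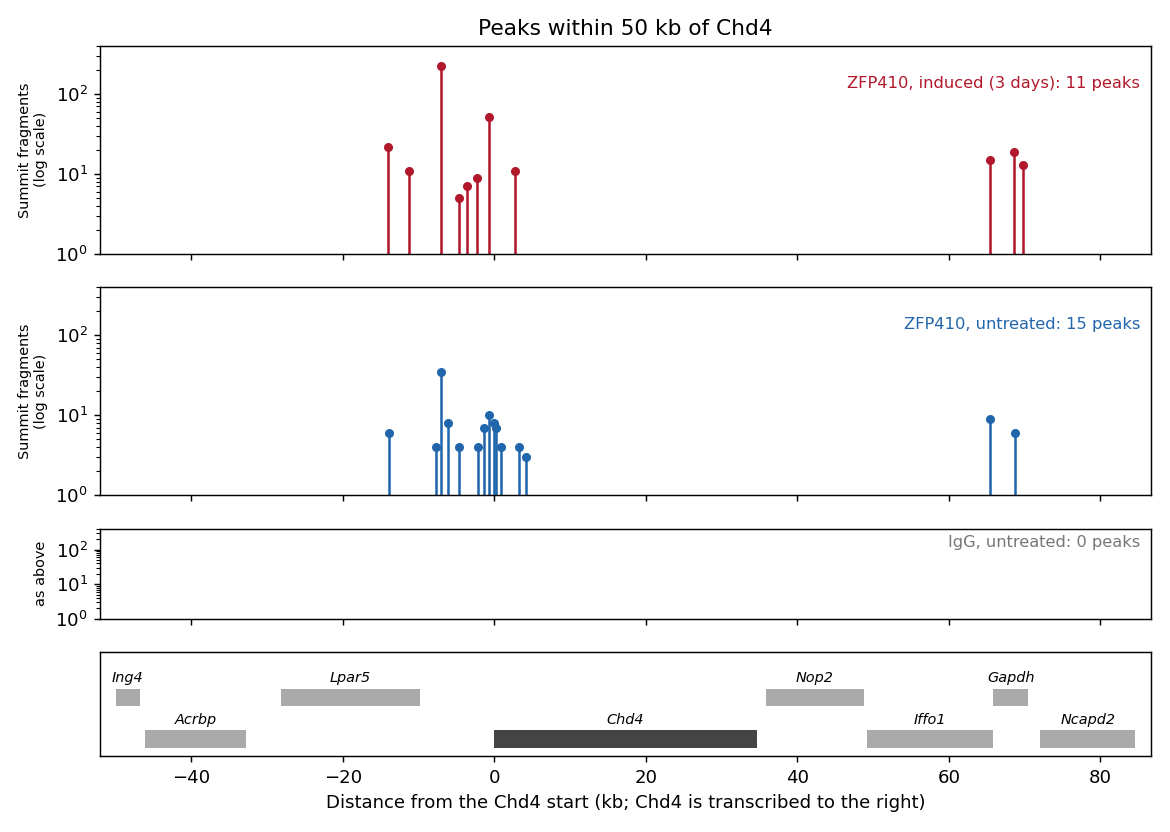
Summit fragments (y axis, log scale) of every peak within 50 kb of Chd4 against distance from the Chd4 start (x axis, kb), for induced, untreated and IgG libraries from top to bottom, with coding genes clipped at the window. The induced list has 11 peaks, the untreated list 15 and IgG 0, and the peaks fall into a group around the start and a group at Gapdh.

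Enrichment was taken as summit fragments divided by that library's own genome background, the lowest local background in its list (0.246 fragments induced, 0.110 untreated). It was 922 in induced and 318 in untreated cells at the upstream site. At the start it was 211 in induced and 91.0 in untreated cells. The ratio of induced over untreated was 2.89 (exact binomial 95% interval 2.02 to 4.26) upstream and 2.32 (1.17 to 5.12) at the start. Where an induced peak overlapped several untreated ones, the highest of them was used. Of 7 sites called in both lists, 5 had a low local background, at most 2 times the genome background in each list, and 2 of these 5 had an interval above 1. Over all 1263 shared sites of low background the interval lay above 1 at 21 (1.66%) and below 1 at 20, with a median ratio of 0.814. The interval narrows as fragments rise, so sites of few fragments need a larger ratio to lie above 1. The median induced peak held 7 fragments, against 227 upstream and 52 at the start, so these shares are not from peaks of like height. By ratio the upstream site ranked 13 and the start 30 of the 1263.

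The other 5 shared sites of the locus had intervals that included 1. Their ratios were 1.64 (0.644 to 4.93) at the shared Lpar5 site, 0.558 (0.120 to 2.81) and 1.00 (0.280 to 4.46) between the upstream site and the start, 0.744 (0.305 to 1.93) inside Iffo1, and 1.41 (0.543 to 4.32) inside Gapdh. With relative depth as the scale, the ratio was 3.23 (2.25 to 4.75) upstream and 2.59 (1.301 to 5.71) at the start. Set against the median of the shared sites, the values were 3.56 (2.48 to 5.23) and 2.85 (1.43 to 6.29). The 2 highest sites stood above 1 on each of the 3 scales in these libraries. The other scales multiply every ratio by the same constant, above 1 in both cases. Intervals above 1 on the first scale therefore had to stay above 1. The intervals cover counting error and not the spread between cultures.

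**Figure D3:**
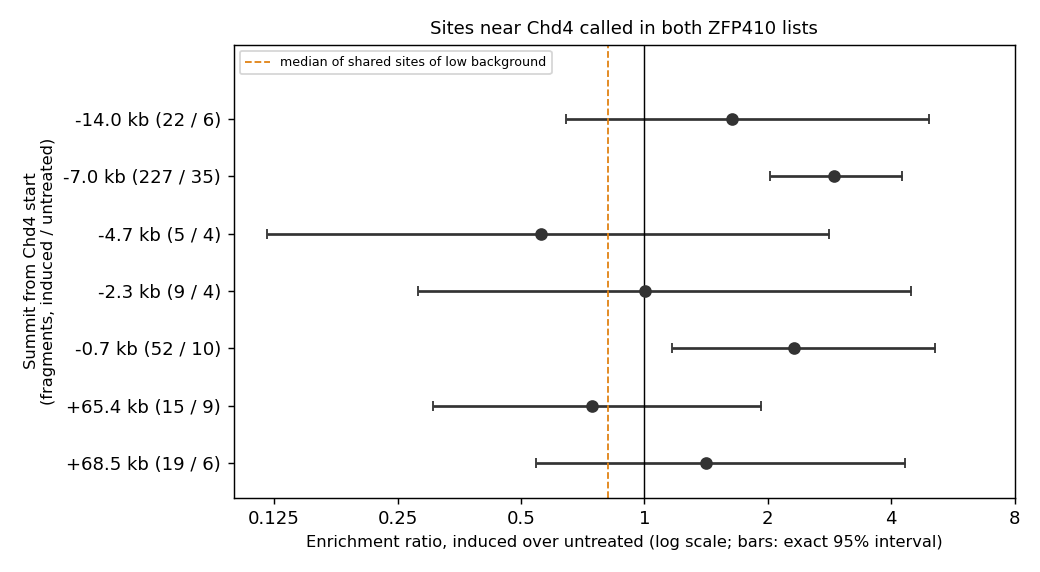
Ratio of enrichment, induced over untreated (x axis, log scale), at the 7 sites near Chd4 called in both lists, with exact 95% intervals as bars and induced and untreated summit fragments in the row labels. The intervals of the sites 7.0 and 0.7 kb upstream lie above 1, and the dashed line is the median ratio, 0.814, of all shared sites of low background.

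The induced peaks at the upstream site and the start were wide for their list. At 3716 and 3418 bp they ranked 2 and 3 by width among 7475, where the median was 240 bp. The widest, 5602 bp, was the peak whose nearest coding gene was Gpr141. The highest untreated peaks at the upstream site and the start, 901 and 752 bp, ranked 42 and 62 by width, where the median was 194 bp. Among the 50 induced peaks of highest fold the median width was 766 bp. Inside Alg9, a mannosyltransferase gene, the highest peak was 771 bp wide in the induced list at rank 2 and 564 bp wide in the untreated list at rank 1. The induced peak at Stip1, a cochaperone gene, was 1193 bp wide at rank 4, and the one near Enpp2, which encodes autotaxin, 727 bp at rank 5. Near Slc38a2, inside Btbd9 and at Ska2, the remaining top 5 of the untreated list, widths were 578, 432 and 548 bp.

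**Figure D4:**
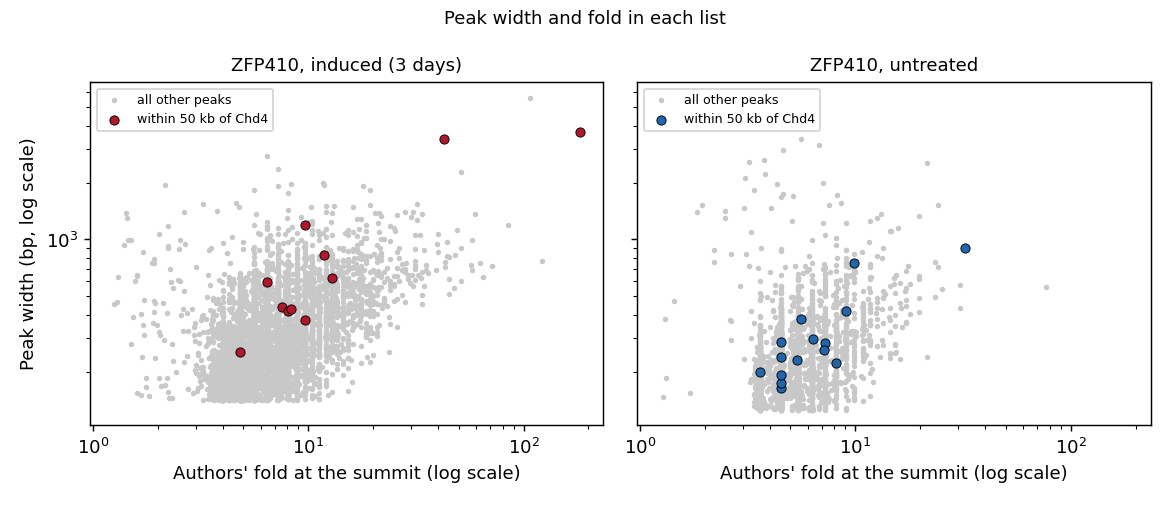
Peak width (y axis, bp, log scale) against the authors' fold (x axis, log scale) for each peak of the induced (left) and untreated (right) lists, with peaks within 50 kb of Chd4 in colour. The 2 wide induced Chd4 peaks, at folds of 42.5 and 183, measure 3418 and 3716 bp, and only 1 induced peak is wider.

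By number of peaks within 50 kb, Chd4 was among the most densely marked of 21887 coding genes. It had 11 induced peaks, which placed it at rank 8 (11 genes, or 0.0503%, had at least as many), and 15 untreated peaks, the highest number of any gene. Acrbp, Lpar5 and Nop2 also had 15 untreated ones (4 genes with Chd4, or 0.0183%). The Nop2 window takes in the same peaks. Those of Acrbp and Lpar5 take in the peaks around the Chd4 start, miss those at Iffo1 and Gapdh, and hold others outside the Chd4 window. In all 39.9% of coding genes had an induced peak and 23.5% an untreated one within 50 kb, and the median gene had 0 in both lists. The next loci by untreated peaks were Frmd8 with 8 and Apba2, D17H6S56E-5 and Mid1 with 7 each. By induced peaks Apba2 had 19, Frmd8 16, Nop2 12, Sfi1 11 and Mreg 10, and predicted genes on chromosome 8 reached 31. The Nop2 window holds all 11 induced peaks of Chd4, so it is not a separate locus. The window grows with the gene, and Apba2 is far longer than Chd4. Of the peaks near Chd4, 8 of 11 induced and 11 of 15 untreated stood at the genome background, shares near the 69.9% of all induced and 78.4% of all untreated peaks. At Frmd8 4 of 16 induced and 1 of 8 untreated peaks stood at the genome background. At Apba2 all 19 induced and all 7 untreated peaks did, as did all 7 untreated peaks at D17H6S56E-5. Of the induced peaks, 2 of 11 at Sfi1 and 3 of 10 at Mreg did, and of the untreated peaks 0 of 7 at Mid1. Near Chd4, 10 of 11 induced and 7 of 15 untreated peaks had a −log10 q of at least 5, against 48.6% of all induced and 27.6% of all untreated peaks.

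**Figure D5:**
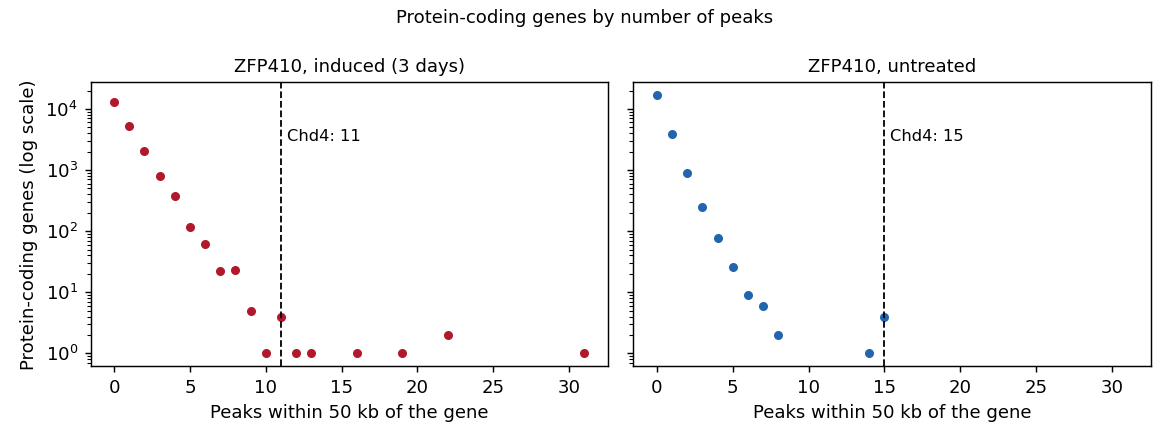
Number of protein-coding genes (y axis, log scale) by number of peaks within 50 kb (x axis), for the induced (left) and untreated (right) lists, with Chd4 as a dashed line. Chd4 stands at 11 in the induced list and at 15, the highest value, in the untreated list.

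Chains of peaks with gaps of at most 5 kb, a measure chosen after the data had been seen, were counted without regard to genes. On placed chromosomes the untreated chain at Chd4, 12 peaks over 12104 bp, was second only to a chain of 27 on chromosome 9 (3000004 to 3038219). That chain stood at a median local background 397 times the genome background and held 14 IgG peaks. The Chd4 chain stood at 1.00 times and held 0. In the induced list the Chd4 chain of 8 peaks ranked 5, level with another of 8 on chromosome 8. Ahead of them were chains of 33, 18, 17 and 12. The highest fold in those 4 was 12.04, against 183 at Chd4. Like the Chd4 chain, the chains of 18 (chromosome 7) and 12 (chromosome Y) stood at a median of 1 times the genome background and held 0 IgG peaks. The chain of 17 stood at 2.33 times and held 0, and the chain of 33 at 365 times and held 14.

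IgG gave no peak within 50 kb of Chd4, as at all but 1.73% of coding genes. At the enrichment of the untreated upstream site the IgG library would have held 7.34 fragments by genome background, or 4.99 by relative depth, above the lowest called number of 2. At the start 2.098 would have been expected by genome background and 1.43 by relative depth, on either side of that number. At the other 5 shared sites 0.839 to 1.89 would have been expected by genome background, below that number. A like signal there could have gone uncalled at the IgG depth. No IgG control for the induced state was analysed here.

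Of the other 14 NuRD genes, 9 had an induced peak within 50 kb (64.3%, against 39.9% of coding genes), 3 an untreated one (21.4%, against 23.5%) and 0 an IgG one. None of the 14 had more than 4 induced peaks (Chd3) or 2 untreated ones (Mbd2), against the 11 and 15 of Chd4. Zfp410, the gene of the mapped factor, had 1 induced and 0 untreated peaks within 50 kb.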

How the data were processed

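ZFP410 CUT&Tag of induced and untreated brown preadipocytes and IgG CUT&Tag of untreated cells gave 1 peak list each. Per the submitters' processing notes, the tools were MACS2 2.1.1, Bowtie2 2.2.6 and Picard, with mm10 as the build. The deposited peak names carry a q threshold of 0.1. The sources used here do not say how duplicates were handled or which control the caller had. For each peak the authors deposited a score (10 times −log10 q), the fold over local background as a ratio, −log10 p, −log10 q and the summit offset.

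In MACS2 the fold is (fragments + 1) / (background + 1) at the summit, and p is a Poisson tail. Together they gave whole fragments for all 7475 induced, 3256 untreated and 480 IgG peaks, with gaps in −log10 p of at most 0.00107, within rounding. The step was tested on 500 simulated peaks per list, built from the recovered values with the same formulas. That tests the effect of rounding and not the formulas themselves. Local backgrounds fell on grids of whole control fragments (609 of 653, 59 of 79 and 173 of 178 values in the induced, untreated and IgG lists), whose step gave each library's depth over its control. Relative depth takes the controls as equally deep: a finer grid measured 0.0467 of the genome background in each list. Analysis used Python 3.11.15, pandas 2.3.3 and scipy 1.17.1.

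Peaks shared a site when they overlapped by at least 1 bp. Coordinates are 1-based. Intervals are at 95%. Named genes were Chd4 and its neighbours within 50 kb, the 5 densest loci per list, the genes nearest the 5 highest peaks per list, NuRD genes as a count, and Zfp410. Predicted genes were skipped among the loci. Genes holding the word, Hhat, Rrp15 and Mir7045 were named after their values were seen. The members and lists were chosen with earlier results of these data known.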

Additional observations from a re-analysis of the deposited data

How the results depend on the processing

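No paired analysis was possible because each group held 1 library. Of 65 alternative values 49 stayed close to the reported ones, 16 moved and 0 reversed. IgG had 0 peaks near Chd4 in every setting tried. Within 10 kb of Chd4 the induced list held 6 peaks. With −log10 q held to 5 or more, the untreated list kept 7 peaks near Chd4, over 3135 bp, and all 7 overlapped an induced one. At a fold of at least 5 it held 9. With at least 50% of both peaks overlapping, 4 untreated peaks were shared, and with summits within 100 bp 5 were. Both wide induced peaks still spanned 2 or more untreated ones at these thresholds on q and fold. Ranked by summit fragments, the induced upstream and start peaks came 18 and 112, and the untreated ones 61 and 246. Ranked by −log10 p, the untreated upstream peak came 11. Among coding genes by induced peaks, Chd4 ranked 18 within 100 kb, 2 by covered length and 1 at a −log10 q of at least 5. Its rank by untreated peaks was 1 in each setting tried. With chains of gaps up to 2 kb, a setting chosen after seeing the data, the untreated chain at Chd4 held 6 peaks. The cause of these shifts was not tested. Most of the low peaks held under 10 fragments, and the part of depth in their calling was not tested.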

Other observations

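The 9-letter word of the Chd4 start also lay in start windows of other genes, and at a few of these a peak overlapped the window. Peaks were matched to the window and not to the word. The genes are named here after their values had been seen. Cbx8, which encodes a Polycomb protein that reads methylated histone H3, had the highest such peak after Chd4. It held 35 fragments in induced cells (119040590 to 119041110 on chromosome 11, rank 340) and 8 in untreated cells (119040609 to 119040878, rank 363). The induced summit lay 46 bp and the untreated one 204 bp from the word. The induced peak spanned the word, and the untreated peak ended before it. The induced fold was 15.1, which at 35 fragments means a local background above the genome background. Mrpl33 and Tyw1 had induced peaks of 5 and 6 fragments and no untreated peak. The Tyw1 peak spanned the word, and the Mrpl33 peak did not reach it, with its summit 178 bp away. Lin54 and Mcpt4, the other genes with the 12-letter word, had no peak over a start window in either list. The word, in capitals and with its own coordinates, is shown with the bases that follow it on the strand that carries it, to compare the sites with copy 4 at Chd4.
Chd4, copy 4: TATTATGGGctgtccgtg
Cbx8, chr11:119040917-119040925, minus strand: TATTATGGGctgtcgagg
Tyw1, chr5:130255638-130255646, plus strand: TATTATGGGtgagtaatg
Mrpl33, chr5:31613830-31613838, minus strand: TATTATGGGaaggacccc
Lin54, chr5:100500627-100500638, minus strand: TATTATGGGATGcggcgg
Mcpt4, chr14:56062474-56062485, minus strand: TATTATGGGATGcaggag
A match is a description of letters, and whether ZFP410 binds these sites was not tested.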
